A study of Rattus norvegicus with 6 samples.

Results

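The neurotrophin genes examined here were Bdnf and Ntf3, which encode the ligands BDNF and NT-3, Ntrk2 and Ntrk3, which encode their receptor tyrosine kinases TrkB and TrkC, Ngfr, which encodes the p75 receptor, and Sort1, which encodes sortilin. They were chosen by name, as the rows of the deposited gene table that carry these symbols, and all 6 were found among 32883 genes. RNA had been sequenced from the vestibular epithelium of Long-Evans rats. The STREP group held 3 animals that received streptomycin, an aminoglycoside antibiotic toxic to the sensory hair cells (HCs), at 500 mg/kg under the skin once a day for 6 weeks from postnatal day 21. The Control group held 3 animals that received the vehicle, PBS. Each group had 2 males and 1 female, each library came from 1 animal, and in every animal 2 utricles and 6 cristae were pooled. The libraries were bulk libraries of whole tissue, so HCs, supporting cells, nerve endings, Schwann cells and stroma contribute together, and fewer cells of a type cannot be told apart from less RNA per cell. The sample labels place the 6 libraries in the same batch.

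Neurotrophins are secreted as precursors, cut by proprotein convertases, and bound by Trk receptors on neurons, which signal through adaptors to several kinase pathways. In the vestibular organs BDNF is made by HCs and sustains the afferent neurons that contact them, whereas NT-3 has its larger role in the cochlea. BDNF binds TrkB and NT-3 binds TrkC, and both receptors also exist in truncated forms without the kinase domain, which the gene-level counts used here do not separate. The p75 receptor, found on Schwann cells among others, binds proneurotrophins together with sortilin, which also sorts BDNF inside the cell.

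The Bdnf gene is transcribed from several alternative first exons, and its counts sum the transcripts from all of them. RefSeq windows around annotated starts, on build GRCr8, a later build than the one the reads were aligned to, were at hand for 3 of the 6 genes, with 6 starts for Bdnf, 3 for Ntf3 and 1 for Sort1. Windows for Ntrk2, Ntrk3 and Ngfr were not analysed here. The 250 bases before the start were searched on both strands for TGACG, the core of the cAMP response element through which activity is known to drive Bdnf, for the whole element TGACGTCA, which contains that core, and for the E-box CACGTG. These motifs were chosen with the expression results known. Of the 6 Bdnf windows, 1 held the core, at chr3:116637608-116637857, and the core began 35 bases before the start. The whole element and the E-box were in none of the Bdnf, Ntf3 or Sort1 windows. Of 33469 rat windows of this length, 18.2% held TGACG or its complement, 1.59% the whole element and 5.59% the E-box. Windows 5 and 6 of Bdnf and windows 2 and 3 of Ntf3 overlap. The 2 sequences show the window before the first annotated Bdnf start, at chr3:116619383-116619632, and the window with the core, both on the plus strand, 5′ to 3′, with the core in capitals.
Bdnf window 1: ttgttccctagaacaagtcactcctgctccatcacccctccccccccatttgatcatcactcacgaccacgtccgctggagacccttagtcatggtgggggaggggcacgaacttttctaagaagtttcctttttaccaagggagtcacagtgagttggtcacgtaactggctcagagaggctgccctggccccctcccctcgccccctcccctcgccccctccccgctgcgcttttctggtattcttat
Bdnf window 4: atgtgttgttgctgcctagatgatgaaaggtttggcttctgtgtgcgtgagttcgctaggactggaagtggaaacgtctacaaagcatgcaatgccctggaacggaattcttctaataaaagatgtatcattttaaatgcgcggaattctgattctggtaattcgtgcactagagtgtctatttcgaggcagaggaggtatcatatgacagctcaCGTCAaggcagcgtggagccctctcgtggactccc

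The 6 libraries held between 29333584 and 59906048 counts, and every STREP library was smaller than every Control library. Normalised counts are the deposited counts divided by a size factor per library. A gene was called when its DESeq2 adjusted p-value, taken over all 16250 tested genes, was under 0.05 and its fold change exceeded 1.5. Of the 6 neurotrophin genes, 2 were called lower in STREP animals, Bdnf and Ntrk3, beside 1.37% of all tested genes. The 6 genes were chosen with earlier results of these data known. The study itself lists Bdnf and Ntrk3 as downregulated in all its models, so the count beside that share is a description only. Higher in STREP animals, 0 of 6 were called by DESeq2, beside 1.87% of tested genes, and 0 by edgeR. Sort1 alone was higher at an unadjusted p under 0.05, a looser limit for which no share of all tested genes was computed. All 3 STREP values lay below all 3 Control values for the same 2 genes, Bdnf and Ntrk3, a pattern found in 8.63% of tested genes, and all STREP values lay above Control for Sort1, as for 9.12% of tested genes. The median log2 fold change of all tested genes was 0.0069.

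**Figure D1:**
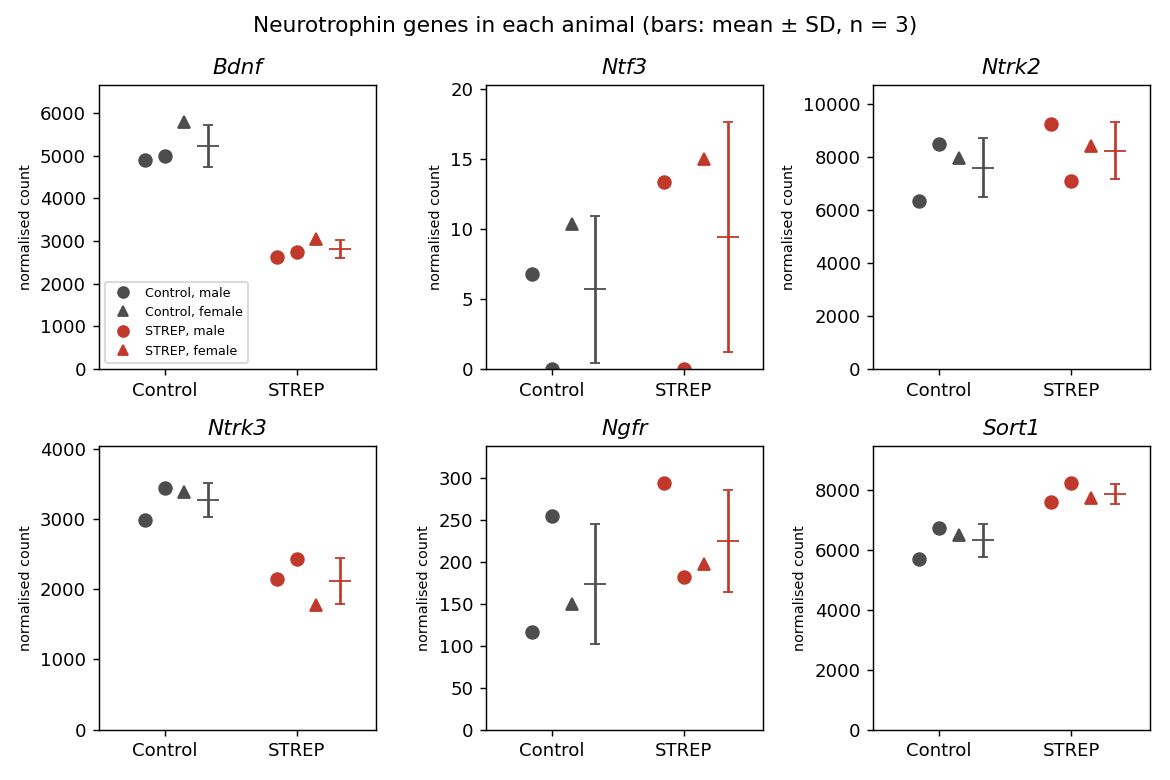
Normalised counts (vertical axes, starting at 0) of the 6 neurotrophin genes in each Control and STREP animal, circles for males and triangles for females, with the mean ± SD of 3 animals beside them. The groups are apart for Bdnf and Ntrk3, lower in STREP, and for Sort1, higher in STREP, and they overlap for Ntf3, Ntrk2 and Ngfr.

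Bdnf (ENSRNOG00000047466) had the clearest change of the family. Its normalised counts were 4897, 4980 and 5786 in Control animals 1, 2 and 3 and 2624, 2751 and 3049 in STREP animals 1, 2 and 3. The highest STREP animal was therefore well below the lowest Control animal, and the female was the highest animal of each group. The mean fell from 5221 ± 491 to 2808 ± 218 normalised counts (SD, n = 3), so STREP animals held 53.8% of the Control level. The log2 fold change was -0.89 ± 0.14 (SE, 95% interval -1.17 to -0.62), with a DESeq2 adjusted p of 3.32e-08. With a count filter, edgeR's quasi-likelihood test also called it (adjusted p = 0.00556). The interval reaches close to the 1.5-fold limit, and a test of whether the change exceeds that limit did not pass.

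Ntf3 (ENSRNOG00000019716) was close to the limit of detection. Its unscaled counts were 11, 0 and 12 in Control animals and 10, 0 and 10 in STREP animals. Each group thus had a library at 0, Control animal 2 and STREP animal 2, where a floor of 3 counts corresponds to 2.55 and 3.24 normalised counts. The 95% interval of the log2 fold change ran from -2.78 to 4.22 (DESeq2 adjusted p = 0.965), so a difference in either direction was not detectable at this depth.

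Ntrk3 (ENSRNOG00000018674), the TrkC receptor gene, was lower in STREP animals by a smaller margin than Bdnf. Its normalised counts were 2986, 3434 and 3384 in Control animals and 2140, 2424 and 1776 in STREP animals. The groups did not overlap, and the female STREP animal was the lowest of all 6. The mean fell from 3268 ± 246 to 2113 ± 325 (SD, n = 3), or 64.7% of Control, with a log2 fold change of -0.63 ± 0.16 (SE, 95% interval -0.94 to -0.31) and a DESeq2 adjusted p of 0.00496. The call was lost with edgeR and a count filter (log2 fold change -0.63, adjusted p = 0.0572), with library totals as size factors (-0.61) and among males alone in DESeq2 (-0.49, adjusted p = 0.146), and without Control animal 2 (-0.59), Control animal 3 (-0.60) or STREP animal 3 (-0.52).

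Ntrk2 (ENSRNOG00000018839), the TrkB receptor gene and the receptor for BDNF, did not pass the test. It had 6334, 8477 and 7938 normalised counts in Control animals and 9216, 7069 and 8385 in STREP animals. Both the lowest and the highest animal were males, 1 of each group, and the remaining animals were interleaved. The means were 7583 ± 1115 and 8223 ± 1083 (SD, n = 3), the log2 fold change was 0.12 ± 0.16 (SE, DESeq2 adjusted p = 0.903), and its 95% interval, -0.20 to 0.44, excludes a 1.5-fold change in either direction in this fit.

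Ngfr (ENSRNOG00000005392), the p75 receptor gene, was the most variable of the genes detected in every library. Its normalised counts were 117, 254 and 150 in Control animals and 294, 182 and 197 in STREP animals. STREP animals 2 and 3 lay within the Control range and STREP animal 1 above it. The means were 173 ± 71.8 and 225 ± 60.7 (SD, n = 3), and the log2 fold change of 0.37 ± 0.37 (SE, 95% interval -0.36 to 1.11, DESeq2 adjusted p = 0.821) leaves room for a more than 1.5-fold rise.

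Sort1 (ENSRNOG00000031814), the sortilin gene, had 5710, 6747 and 6513 normalised counts in Control animals and 7608, 8244 and 7750 in STREP animals. Every STREP animal was above every Control animal on this scale. In CPM, which scale counts to the library total instead, the values were 155, 163 and 155 in Control and 195, 240 and 154 in STREP animals, where STREP animal 3 was the lowest of all. The means were 6323 ± 544 and 7867 ± 334 normalised counts (SD, n = 3), with a log2 fold change of 0.32 ± 0.13 (SE, 95% interval 0.066 to 0.57). It missed the threshold after adjustment (DESeq2 adjusted p = 0.194), and the upper end of the interval is below a 1.5-fold change.

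Each group had 1 female, so a different response of the sexes could be looked at only in single animals. The interaction of sex and group had a DESeq2 adjusted p of 0.999 for Bdnf, Ntrk2, Ntrk3, Ngfr and Sort1, and Ntf3 received no adjusted value.

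**Figure D2:**
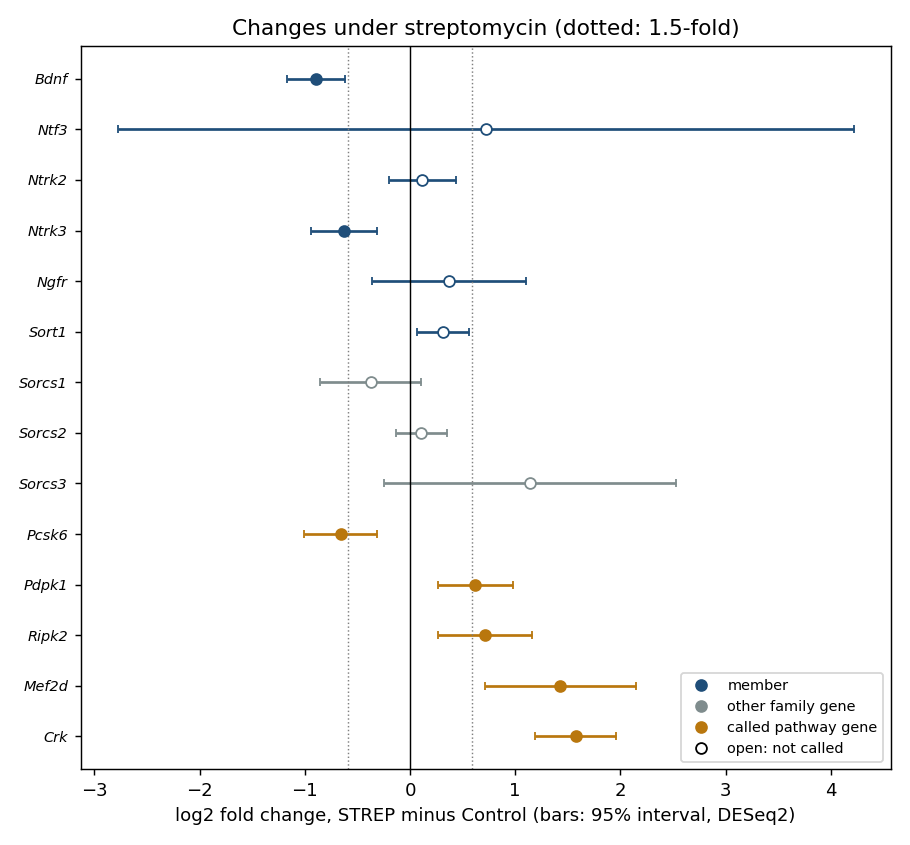
Log2 fold changes of STREP over Control animals (horizontal axis, with 95% intervals from DESeq2) for the 6 neurotrophin genes, other family genes and called genes of the pathway lists. Filled points are called, and dotted lines mark a 1.5-fold change. Bdnf and Ntrk3 are the filled points on the left among the 6, and Ntf3 has the widest interval.

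To set genes beside markers of cell types in the tissue, log2 ratios of normalised counts were taken within each animal, which removes the scaling of the library. Which cells carried the RNA of each gene was not tested. Transcript lengths were not used, so a ratio is informative only through its difference between animals. Of 9 planned ratios, 7 could be computed, since those with Ntf3 meet a library at 0, and an exact permutation test of 3 against 3 animals cannot give a p below 0.1. Against Pou4f3, an HC transcription factor that acts upstream of Bdnf, the log2 ratio of Bdnf was -0.24, -0.09 and 0.08 in Control animals and -0.67, -0.75 and -1.01 in STREP animals. The groups did not overlap, with a mean difference of -0.73 (exact two-sided permutation p = 0.1, 0.233 after Benjamini-Hochberg adjustment over 7 ratios). Against Myo7a, the HC myosin, it was -0.16, 0.09 and 0.35 in Control animals and -0.36, -0.45 and -0.12 in STREP animals. The groups overlapped here, and the mean difference was -0.40 (exact permutation p = 0.2).

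The log2 ratio of Ntrk2 to Ntrk3 was 1.09, 1.3 and 1.23 in Control animals and 2.11, 1.54 and 2.24 in STREP animals. It was higher in every STREP animal, by 0.76 on average (exact permutation p = 0.1, the smallest possible, 0.233 after adjustment). Against Nefl, the light neurofilament of afferent fibres, Ntrk3 differed by -0.36 and Ntrk2 by 0.40 between the groups, with overlapping animals in both (exact permutation p = 0.2 for each). Ngfr differed by 0.56 against S100b, a Schwann cell marker (exact permutation p = 0.4), again with overlap.

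**Figure D3:**
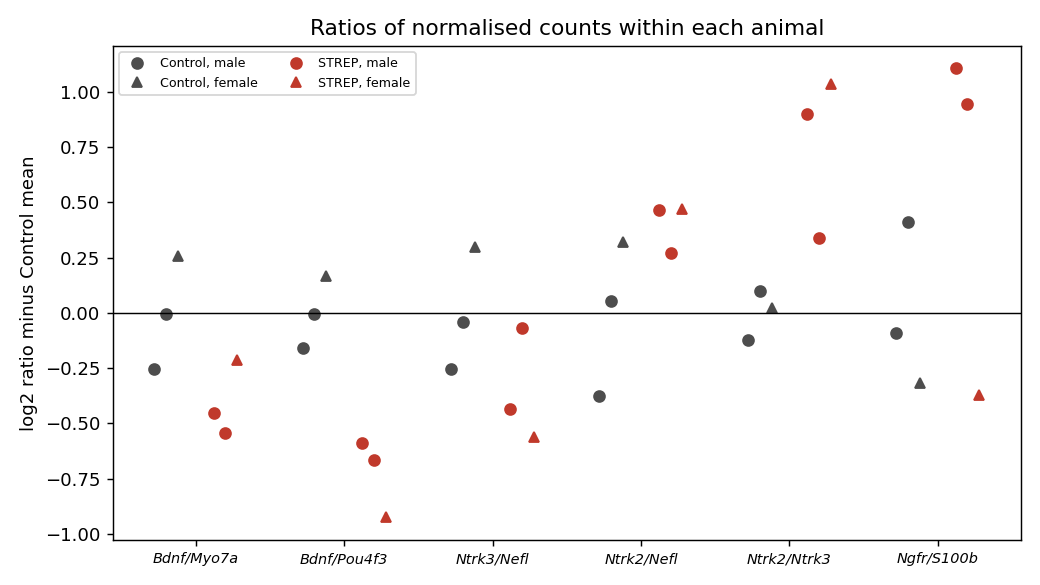
Log2 ratios of normalised counts within each animal, minus the mean of the Control animals (vertical axis), for 6 pairs of genes. The Control and STREP animals are apart for Bdnf over Pou4f3, lower in STREP, and for Ntrk2 over Ntrk3, higher in STREP, and overlap for the other pairs.

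Markers of the cell types in the tissue were counted in the same libraries. Of 14 HC markers, 1 was called lower and 1 higher, beside 1.37% and 1.87% of all tested genes. Their median log2 fold change was -0.16. Their summed level ran from 84743 to 89520 normalised counts in Control and from 73473 to 87195 in STREP animals. Strc, stereocilin of the hair bundle, was the gene called lower (922 ± 187 to 361 ± 214, log2 fold change -1.35, DESeq2 adjusted p = 0.0151), and Gfi1, an HC transcription factor, the gene called higher (1525 ± 408 to 3505 ± 447, log2 fold change 1.20). With a count filter, edgeR called 0 of the 14 lower, so the Strc call was lost, and 1 higher. Of the 14 genes, 9 had a fold change below 0 on the log2 scale, 5 had all STREP animals below Control (8.63% of all tested genes) and 2 all above (9.12%), and at an unadjusted p under 0.05 there were 5 lower and 2 higher. Besides Strc, the 5 lower genes were Myo7a (log2 fold change -0.49, DESeq2 adjusted p = 0.0162) and Lhfpl5 (-0.45, DESeq2 adjusted p = 0.0161), which passed the adjusted p but not the fold, and Tmc1 (-0.40) and Slc17a8 (-0.30), which did not pass. Another 5 of the 14 had a fold change above 0 on the log2 scale, and of those only Gfi1 is named here. Myo6 (-0.13) and Pou4f3 (-0.15) did not pass, and none of the 14 HC markers was under 50 normalised counts in every library. Whether the number of HCs had a part in the lower Bdnf level was not tested.

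Of 10 afferent neuron markers, 4 (Stmn2, Prph, Elavl3 and Scn9a) stayed under 50 normalised counts in every library. Tubb3, a neuronal tubulin, was the 1 called gene and it was higher in STREP animals (124 ± 54.0 to 302 ± 70.7, log2 fold change 1.28, DESeq2 adjusted p = 0.0182), beside 1.87% of all tested genes called higher. Nefl (-0.29) and Nefm (-0.17) did not pass, and edgeR with a count filter called 0 of these 10 genes. With the low genes included, the median log2 fold change was 0.65, with 6 of 10 genes above 0 and 4 below. All STREP animals lay above Control for 1 gene (9.12% of all tested genes) and below for 0 (8.63%). At an unadjusted p under 0.05, 1 was lower and 1 higher. The summed level of the list was 3494 to 3966 in Control and 3278 to 3519 in STREP animals. Of 11 Schwann cell markers, Prx, the periaxin of myelin, was called lower (log2 fold change -0.68, with overlapping groups) and Sox10, the transcription factor of the lineage, higher (0.95), whereas Pmp22 (-0.29) did not pass. Of all tested genes, 1.37% were called lower and 1.87% higher. With a count filter, edgeR called 0 of these 11 genes lower, so the Prx call was lost, and 1 higher. The list had a median log2 fold change of -0.34, with 9 of 11 genes below 0. All STREP animals lay below Control for 3 genes (8.63% of all tested genes) and above for 1 (9.12%). At an unadjusted p under 0.05, 3 were lower and 1 higher. The summed Schwann cell level was 429636, 618749 and 552588 in Control animals and 479519, 274331 and 622152 in STREP animals, so the groups overlapped, with STREP animal 2 the lowest and STREP animal 3 the highest. Their part in the Ntrk3 and Ngfr values was not tested.

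Of the 6 markers of dark cells, the secretory cells beside the sensory epithelium, DESeq2 called 0 and edgeR 0, with 3 at an unadjusted p under 0.05, all lower. Among them, Slc12a2 passed the adjusted p but not the fold (log2 fold change -0.55, DESeq2 adjusted p = 0.0035). The list had a median log2 fold change of -0.44, with 5 of 6 genes below 0 and 1 above. All STREP animals lay below Control for 2 genes (8.63% of all tested genes) and above for 0 (9.12%). The summed level of the 6 markers did not overlap between the groups, at 46032 to 51578 in Control and 32017 to 38918 in STREP animals, and its part in the Bdnf and Ntrk3 values was not tested. The lists for supporting cells, mesenchyme, endothelium and pericytes, macrophages and melanocytes held 0 called genes by either tool, with 2, 1, 0, 3 and 2 genes, respectively, at an unadjusted p under 0.05. The 2 supporting cell genes were higher, the 1 mesenchyme and 2 melanocyte genes lower, and of the macrophage genes 1 was lower and 2 higher. The melanocyte list had a median log2 fold change of -0.96, with 4 of 5 genes below 0 and 1 above. Its summed level was 27264 to 28268 in Control and 27915 to 39978 in STREP animals. The summed levels of all of these lists overlapped between the groups.

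**Figure D4:**
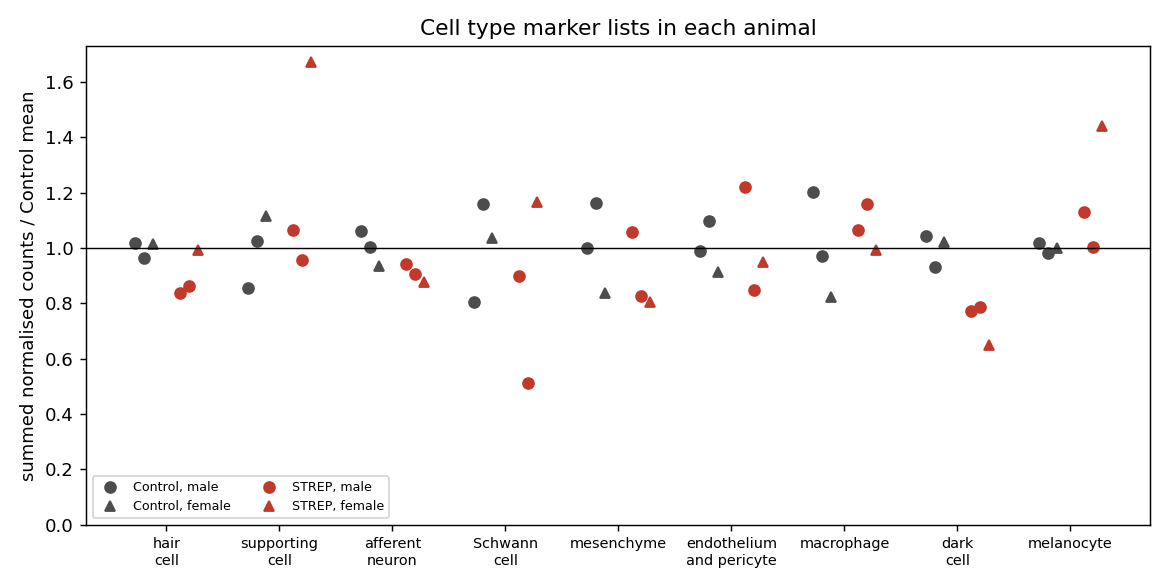
Summed normalised counts of 9 cell type marker lists in each animal, divided by the mean of the Control animals (vertical axis, starting at 0). The dark cell list has every STREP animal below every Control animal, the Schwann cell list has STREP animal 2 lowest, and the supporting cell list has STREP animal 3 highest.

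The other members of the family were low or showed no call. Ntf4, the second TrkB ligand, had 0 counts in 4 libraries, 3.44 normalised counts in Control animal 3 and 8.64 in STREP animal 2, and received no adjusted p. Among the sortilin relatives, Sorcs1 differed by -0.37 ± 0.25, Sorcs2 by 0.11 ± 0.12 and Sorcs3 by 1.14 ± 0.71 on the log2 scale (SE), and the groups overlapped for each. Of the 5 tested genes of this list, 0 were called by DESeq2 or edgeR and 0 had an unadjusted p under 0.05.

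The wider pathway was described with 8 lists of 156 genes in all, of which 143 were tested. DESeq2 called 1 lower (0.699%) and 6 higher (4.20%), against 1.37% and 1.87% of all tested genes, and the median log2 fold change was 0.08. The edgeR test with a count filter called 1 of these 7 genes, Crk. All STREP values lay below Control for 5 and above Control for 16 of the 143 genes, patterns found in 8.63% and 9.12% of all tested genes.

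Among 12 tested genes for processing and release of proneurotrophins, 1 was called lower, beside 1.37% of all tested genes. It was Pcsk6, a proprotein convertase. It had 1447, 1189 and 1219 normalised counts in Control and 755, 926 and 757 in STREP animals, with no overlap (log2 fold change -0.66 ± 0.18, DESeq2 adjusted p = 0.00799). The call was lost with edgeR (adjusted p = 0.0601) and without Control animal 1 (log2 fold change -0.57) or STREP animal 1 (-0.61). Furin, the convertase best known for cutting proBDNF, differed by -0.03 ± 0.14, and Plat, the protease that activates plasmin, by 0.12 ± 0.16 on the log2 scale.

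Of 26 Trk adaptors and regulators, 1 was called, in the higher direction, beside 1.87% of all tested genes. It was Crk, an adaptor that links Trk receptors to RAP1. It had 312, 252 and 258 normalised counts in Control and 754, 870 and 833 in STREP animals, so its lowest STREP animal was far above the highest Control animal. The mean rose from 274 ± 32.7 to 819 ± 59.6 (SD, n = 3, log2 fold change 1.58 ± 0.20 SE, DESeq2 adjusted p = 4.69e-13, edgeR adjusted p = 0.00176). Of 22 genes for p75 coreceptors, adaptors and cleavage, 1 was called higher, beside 1.87% of all tested genes. It was Ripk2, a kinase that binds p75 (520 ± 103 to 853 ± 164, log2 fold change 0.71 ± 0.23, DESeq2 adjusted p = 0.0466). The Ripk2 call was lost with edgeR (adjusted p = 0.14), with libraries thinned to the smallest total (DESeq2 adjusted p = 0.0907) and without Control animal 1 (log2 fold change 0.62), Control animal 2 (0.64), STREP animal 1 (0.74) or STREP animal 3 (0.56).

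Of 24 genes of the downstream kinase list, 2 were called higher, beside 1.87% of all tested genes. Pdpk1, the kinase that activates AKT, rose from 659 ± 97.6 to 1015 ± 39.0 (log2 fold change 0.62 ± 0.18, DESeq2 adjusted p = 0.0223). It had 701, 547 and 728 normalised counts in Control and 1027, 972 and 1047 in STREP animals, with no overlap. It did not pass edgeR (adjusted p = 0.0974), and leaving out Control animals 1 and 2 and STREP animals 1, 2 and 3 in turn ended its call (log2 fold changes 0.67, 0.50, 0.61, 0.65 and 0.60). Of 16 genes that respond to trophic signals, such as Egr1, Fos and Dusp6, 0 were called by DESeq2 or edgeR, with 1 at an unadjusted p under 0.05. Of 23 genes of other trophic systems, such as GDNF, CNTF and neuregulin, 0 were called by DESeq2 or edgeR, with 2 at an unadjusted p under 0.05.

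Of 16 transcriptional regulators known to act on Bdnf, 2 were called higher, beside 1.87% of all tested genes. Mef2d, an activity-regulated factor, had 197, 105 and 131 normalised counts in Control and 329, 571 and 265 in STREP animals (log2 fold change 1.43 ± 0.37, DESeq2 adjusted p = 0.00463, edgeR adjusted p = 0.0843). Its groups did not overlap, and leaving out Control animals 2 and 3 and STREP animal 2 in turn ended its call (log2 fold changes 1.24, 1.36 and 1.04). Creb1, which binds the cAMP response element, differed by 0.30 ± 0.45 and Usf1, which binds E-boxes, by 0.03 ± 0.14 on the log2 scale, and neither passed the test.

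**Figure D5:**
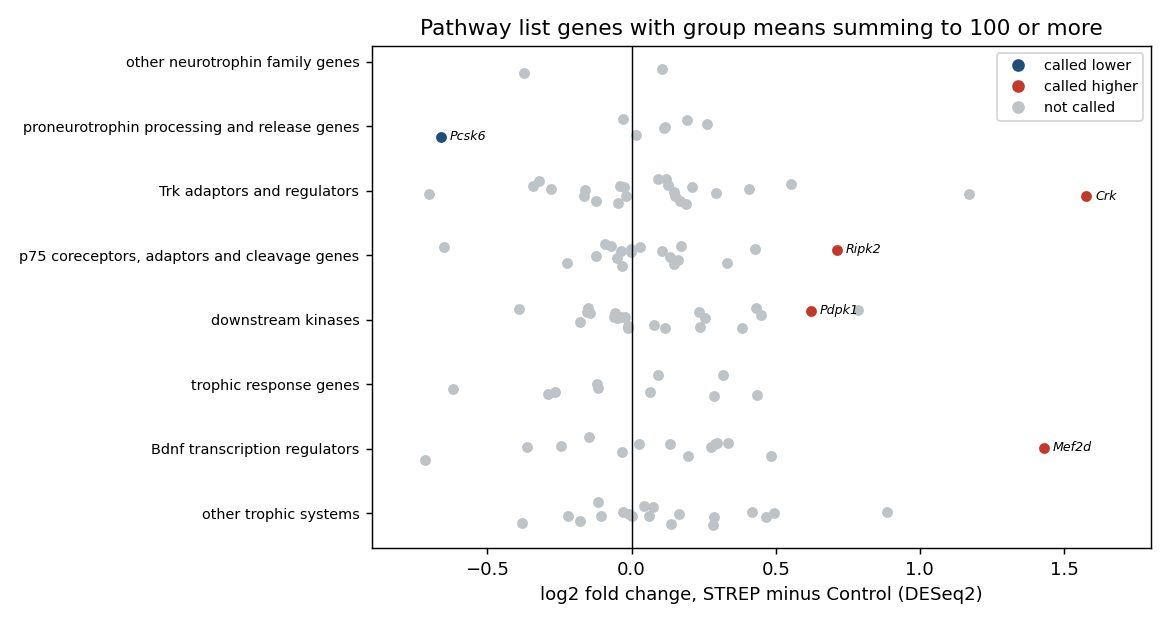
Log2 fold changes of STREP over Control animals (horizontal axis, DESeq2) for the reported genes of the 8 pathway lists whose 2 group means summed to 100 or more normalised counts. Called genes are named. Pcsk6 is the called gene on the left, and Crk and Mef2d lie farthest to the right among the genes shown.

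For the called genes, Bdnf and Ntrk3, the genes with the most similar profile over the 6 animals were sought among 12130 genes, by the root mean square difference of centred log2 values. Since the group difference enters the profile, the neighbours' fold changes are a description. Nearest to Bdnf were Fam107b (root mean square difference 0.0573), Col12a1, a collagen (0.0638), Fuz, a planar polarity and cilium gene (0.0914), Osbp2, an oxysterol-binding protein (0.098), and Dynlrb2, a dynein light chain (0.10). All of these 5 were called lower, with log2 fold changes from -0.94 to -0.81. Nearest to Ntrk3 were Enox1 (0.0456), Cyb561d2 (0.0471), Snap91, a clathrin adaptor of synapses (0.0705), Slc12a2, the sodium-potassium-chloride cotransporter of dark cells (0.0759), and Adcy9, an adenylyl cyclase (0.0821). Of these 5, Cyb561d2 was called (log2 fold change -0.69, DESeq2 adjusted p = 0.00244), and Slc12a2 passed the adjusted p but not the fold (-0.55, DESeq2 adjusted p = 0.0035).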

How the data were processed

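RNA was reverse transcribed from an oligo-dT primer and amplified by the SMARTseq2 protocol, which does not mark strand, so reads of an antisense gene cannot be told apart. Per the submitters' processing notes, the authors aligned reads with STAR 2.5.3a and quantified genes with RSEM 1.3.0 (the study's methods name another RSEM version), and the deposited table holds expected counts per gene, not scaled between libraries; 0 values were not whole. Groups came from the labels, and replicates were numbered in accession order, so they pair no animals.

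All genes were fitted in R 4.3.3 with DESeq2 1.42.0 (median-of-ratios size factors, group alone, Wald test, Benjamini-Hochberg adjustment, independent filtering at 0.05). A call required an adjusted p under 0.05 and a fold change over 1.5. The alternative test was the quasi-likelihood test of edgeR 4.0.16. The fitting steps were tested on simulated data. Alternatives were other scalings, filters, sex as a covariate, males alone, thinning and leaving out each animal. The genes and lists were chosen with earlier results of these data known. Named genes were the 6 genes, their relatives, called genes of the pathway lists, genes of the ratios, called and leading cell type markers, and the 5 nearest profiles with a mean of at least 100 normalised counts. Furin, Plat, Creb1, Usf1, Lhfpl5, Tmc1, Slc17a8 and 4 low neuron markers were named after their values were seen. Listed genes missing from the table were not analysed here, and some listed genes that entered the counts are not reported here by name. Library totals set the precision of counting, not the spread between animals, and floors of 3 counts cover counting error only. Figures were drawn with matplotlib 3.10.9.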

Additional observations from a re-analysis of the deposited data

How the results depend on the processing

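Bdnf was called in every fit run, except that its change (-0.89) did not exceed 1.5-fold when that threshold was placed inside the Wald test. Ntrk3 lost its call with edgeR with a count filter (-0.63) and without (-0.63), with library totals as size factors (-0.61, DESeq2 adjusted p = 0.296), among males alone (-0.49) and with the threshold inside the Wald test (-0.63), and ran from -0.74 to -0.52 with 1 animal left out. The members called lower numbered 1 with edgeR (both filters), library totals and males alone, 0 with the threshold inside the test, and 1 to 2 with an animal left out. Ntrk2 ran from -0.0018, without Control animal 1, to 0.21. Members with all STREP animals above Control numbered 0 with CPM or thinned libraries, and 1 to 2 with an animal left out. Pathway genes called higher numbered 1 with edgeR (both filters), 2 with library totals, 3 in males and 1 with the threshold inside the test, and 1 to 4 with an animal left out. Pathway genes called lower numbered 0 under those 5 settings and 0 to 1 with an animal left out. The causes were not tested, beyond the fewer animals of some fits. Ratio differences kept their direction in all 42 values with an animal left out and in the 14 under other settings. Counts near the floor limit Ntf3, and 3 animals a group limit every value.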
